A study of Sus scrofa and Bos taurus with 31 samples.

Results

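The regions described here are the very wide peaks of open chromatin in the pig, that is peaks of 3000 bp or more that overlapped by at least 1 bp a peak of 3000 bp or more in the other animal of the same tissue, merged over tissues. They were selected on their width, and 636 regions resulted. The 16 pig peak lists held 2324050 peaks, of which 5912 reached 3000 bp, and 1984 of these had a wide partner in the other animal. Chromatin accessibility was measured by ATAC-seq, in which the enzyme Tn5 inserts sequencing adapters into DNA that is not covered by nucleosomes, on cryopreserved nuclei. Samples came from 3 brain regions (cerebral cortex, cerebellum and hypothalamus) and from liver, spleen, lung, skeletal muscle and subcutaneous adipose, 8 tissues in all, each taken from the same 2 animals, P348 and P350. Both were castrated male Yorkshire pigs of 6 months from a single litter, so every value below describes 2 related animals, and no treated group exists. The series also holds 15 cattle lists, which are used in a single comparison. The cattle were intact male Herefords with the same sire and were older than the pigs. Species, breed, age and castration therefore cannot be told apart in that comparison.

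In most cell types an accessible region spans a nucleosome-free stretch at a promoter or an enhancer and is flanked by ordered nucleosomes. Some regions are far broader. Broad accessible stretches are known from promoters of regulatory genes with long CpG islands, where CpG dinucleotides are frequent, and from highly transcribed genes of a specialised cell, where the gene body itself loses nucleosomes. Repeats and collapsed duplications of an assembly also gather reads into broad peaks.

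Stretches of sequence from the RefSeq copy of the pig assembly Sscrofa11.1 show the range of the regions. The first pair are windows of 300 bases, from 250 bases before to 50 bases after the coding start site nearest the centre of the region, on the strand of the gene. At HIVEP2, FOXO3 and CKM this is not the 5′-most start site in the region. They come from the regions of HIVEP2 (chr1:22241238-22241537, plus strand) and FOXO3 (chr1:74627967-74628266, plus strand), which were wide in 7 and 5 tissues. The next 3 are the same windows of muscle genes that were wide in skeletal muscle only, namely CKM (chr6:51715132-51715431, minus strand), ATP2A1 (chr3:18544814-18545113, plus strand) and XIRP1 (chr13:23876801-23877100, minus strand). The ATP2A1 window begins outside its region, which starts at position 18544869. The last is the centre of an autosomal region that was wide in all 8 tissues and holds no coding start site (chr10:24954909-24955208, plus strand). Capitals mark CpG dinucleotides.
HIVEP2: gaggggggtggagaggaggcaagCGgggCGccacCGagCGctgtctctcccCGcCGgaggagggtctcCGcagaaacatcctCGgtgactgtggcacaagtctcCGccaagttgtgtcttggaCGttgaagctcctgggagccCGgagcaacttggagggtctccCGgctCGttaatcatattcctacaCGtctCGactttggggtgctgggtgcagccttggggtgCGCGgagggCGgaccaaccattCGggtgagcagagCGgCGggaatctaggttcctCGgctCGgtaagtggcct
FOXO3: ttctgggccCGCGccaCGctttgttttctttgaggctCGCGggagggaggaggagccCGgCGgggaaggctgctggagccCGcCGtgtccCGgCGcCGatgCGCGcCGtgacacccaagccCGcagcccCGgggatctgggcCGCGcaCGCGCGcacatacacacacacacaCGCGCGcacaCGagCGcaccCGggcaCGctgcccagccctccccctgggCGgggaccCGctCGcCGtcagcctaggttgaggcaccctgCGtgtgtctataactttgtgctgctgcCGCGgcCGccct
CKM: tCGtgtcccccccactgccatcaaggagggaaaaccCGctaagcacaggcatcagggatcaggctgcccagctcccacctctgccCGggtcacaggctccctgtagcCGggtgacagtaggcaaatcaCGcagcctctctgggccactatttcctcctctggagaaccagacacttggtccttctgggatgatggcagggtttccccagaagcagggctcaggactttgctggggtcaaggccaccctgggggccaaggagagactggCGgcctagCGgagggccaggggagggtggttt
ATP2A1: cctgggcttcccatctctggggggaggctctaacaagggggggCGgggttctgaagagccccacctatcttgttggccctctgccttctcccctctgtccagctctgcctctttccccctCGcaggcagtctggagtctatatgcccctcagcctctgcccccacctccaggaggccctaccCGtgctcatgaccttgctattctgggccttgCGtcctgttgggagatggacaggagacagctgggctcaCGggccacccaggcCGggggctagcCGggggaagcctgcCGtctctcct
XIRP1: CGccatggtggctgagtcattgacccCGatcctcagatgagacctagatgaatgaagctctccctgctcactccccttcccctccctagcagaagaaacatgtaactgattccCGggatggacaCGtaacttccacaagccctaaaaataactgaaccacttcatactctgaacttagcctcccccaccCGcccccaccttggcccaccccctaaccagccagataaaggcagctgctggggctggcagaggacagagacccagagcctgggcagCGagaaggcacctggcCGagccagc
Chromosome 10 region: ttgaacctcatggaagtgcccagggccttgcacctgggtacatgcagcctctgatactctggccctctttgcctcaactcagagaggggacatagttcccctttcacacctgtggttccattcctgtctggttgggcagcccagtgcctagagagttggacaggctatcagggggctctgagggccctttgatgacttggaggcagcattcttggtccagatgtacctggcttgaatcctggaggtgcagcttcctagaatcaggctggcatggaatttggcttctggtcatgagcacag

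The windows held 23 CpGs at HIVEP2 and 37 at FOXO3, but 7 at CKM, 8 at ATP2A1 and 7 at XIRP1. The centre of the chromosome 10 region held 0. Over 47137 windows, 1 for each position and strand of a coding start site without unknown bases or a sequence end in the window, the median was 17 CpGs. Of the start sites inside regions that were wide in skeletal muscle only, 417 windows had a median of 26 CpGs, and the 419 windows inside the other regions also had a median of 26. The motif CAGCTG, an E-box that reads the same on both strands, was present in 13.9% of the former and 11.7% of the latter windows, against 17.1% of all coding windows. GGGCGG or its complement on the other strand, the GC box, was present in 71.2% and 71.1% against 52.3%, and TGACTCA or its complement, the AP-1 motif, in 2.88% and 2.39% against 3.21%. No motif contains another. The medians and shares of the windows in muscle-only regions and in all other regions lay close to each other, and both medians were above that of all coding windows.

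Peaks of 3000 bp or more were a small part of every list. They made up between 0.0853% of the peaks in liver P348 and 0.761% in skeletal muscle P348. Skeletal muscle P348 held 958 such peaks and P350 held 585, although the latter list was the shortest of all, with 99960 peaks. Cerebellum held 662 in P348 and 611 in P350. Lung held 291 in P348 and 774 in P350, and adipose held 514 and 197. The lists of the other 4 tissues held from 97 in liver P348 to 278 in cerebral cortex P350. P350 had more wide peaks than P348 in 4 of 8 tissues. The mean log2 ratio of P350 to P348 was 0.05 ± 0.91 (SD, n = 8 tissues; p = 0.867, two-sided, by an exact permutation that flips the signs of tissues), so the animals did not differ in one direction. The depth of the libraries is not held in the lists, and its part in these numbers was not tested.

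The overlap of the animals was partial. In skeletal muscle 378 peaks in each animal had a wide partner, which was 39.5% of the wide peaks in P348 and 64.6% in P350. In adipose the shared peaks numbered 65, 12.6% of those in P348 and 33.0% in P350. Cerebellum had 137 shared peaks, lung 129, cerebral cortex 96, spleen 81, liver 56 and hypothalamus 50. A wide peak without a wide partner nearly always had a narrower one, since between 88.8% and 100% of them overlapped some peak of the other animal. The widest such peak had a median width of 1188 to 1985 bp, with a missing peak counted as having no width. Width near the limit was thus a matter of degree. Pairs whose narrower peak was 3000 to 3099 bp numbered 208, and those from 2900 bp up to the limit numbered 254. Just inside lay the peaks over BHLHE40 in lung, of 3077 and 3001 bp, and over GADD45B in lung, of 3013 and 3003 bp. Just outside lay those over YWHAZ in spleen, of 3011 bp in P348 and 1 bp under the limit in P350.

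**Figure D1:**
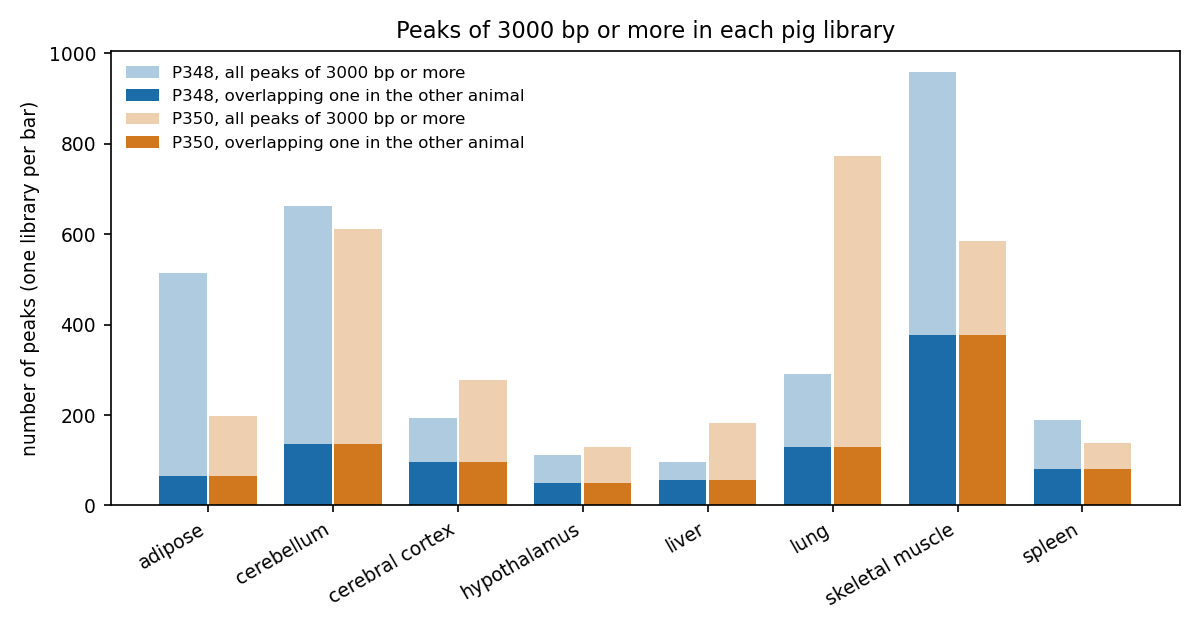
Number of peaks of 3000 bp or more (y axis) in each of the 16 pig libraries (x axis, by tissue, 1 bar per animal), with the dark part of each bar showing peaks that overlapped a wide peak of the other animal. Skeletal muscle had the most shared peaks, 378 in each animal, and adipose P348 the smallest shared part, 65 of 514.

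Most of the 636 regions were wide in a single tissue. This held for 497 regions, or 78.1%, while 63 were wide in 2 tissues, 23 in 3, 19 in 4, 8 in 5, 6 in 6, 12 in 7 and 8 in all 8. Skeletal muscle alone accounted for 311 of the single-tissue regions. Cerebellum had 72, lung 43, cerebral cortex 24, adipose 23, spleen 19, liver 3 and hypothalamus 2. Regions wide in hypothalamus or liver were therefore nearly all shared, 48 of 50 and 53 of 56. Cerebellum and lung shared 46 regions, as did cerebral cortex and lung, and hypothalamus shared 37 with cerebellum and 35 with cerebral cortex. Skeletal muscle, with 378 regions, shared 38 with lung, 34 with cerebral cortex and 16 with hypothalamus. The median span of the regions was 3620.5 bp, and spans ran from 3022 to 9268 bp.

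**Figure D2:**
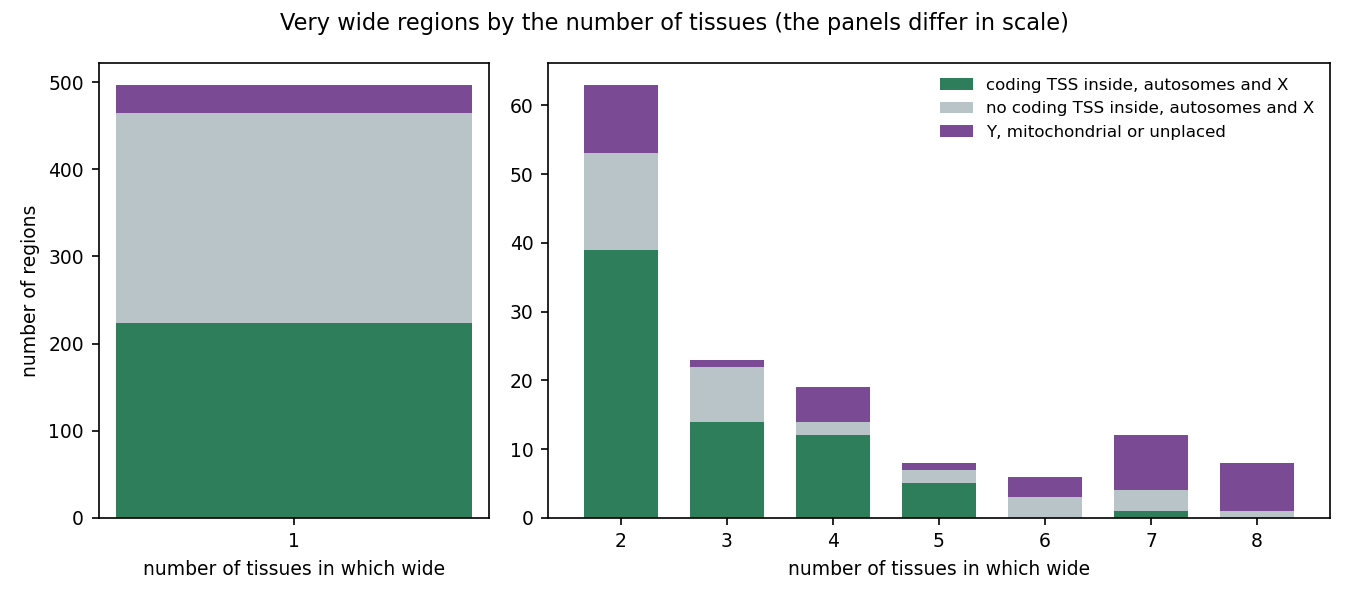
Number of regions (y axis, the left and right panels differ in scale) by the number of tissues in which they were wide (x axis), divided by place. Regions with a coding TSS on autosomes or X fill most of the bars for 2 to 5 tissues, and the bars for 6 to 8 tissues are mostly regions of the Y chromosome, the mitochondrial genome or unplaced scaffolds, 18 of 26.

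Relative to genes of the RefSeq annotation of Sscrofa11.1, 308 of the regions (48.4%) had the transcription start site (TSS) of a protein-coding transcript inside them. A further 18 lay within 2000 bp of a coding TSS and 29 within 2000 bp of a non-coding one. Another 134 lay inside a coding gene, 73 of them touching an exon and 61 in an intron only. In addition 18 lay in other genes and 129 lay between genes. The regions with a coding TSS held the start sites of 346 genes, which was 1.7% of the 20368 coding genes, and 31 of them held start sites of more than 1 gene. Position was measured at the 5′-most start site. Where a gene had several start sites in a region, this choice itself places more of the span downstream. At CKM, for example, the coding start site nearest the centre lay 325 bp from it. Among the 265 autosomal and X-linked regions with a single coding gene, a median of 1194 bp lay upstream of the 5′-most TSS and 2482 bp lay downstream of it, and 194 regions (73.2%) had most of their span downstream, on the side of the gene. In the 137 of skeletal muscle only the medians were 1092 bp upstream and 2627 bp downstream, and in the 62 of another single tissue they were 1458 and 2080 bp. At CKM 191 bp lay upstream and 3051 bp downstream, and at ATP2A1 195 and 3006 bp, so these regions began near the 5′-most TSS and ran into the gene. DES had the reverse, with 2855 bp upstream and 1570 bp downstream.

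The regions with the most tissues were mostly not at coding promoters. Of the 26 wide in 6 to 8 tissues, 18 lay on the Y chromosome, the mitochondrial genome or unplaced scaffolds, and 3 held a coding TSS. In 16 of the 26 (61.5%) the sequence aligned elsewhere in the assembly over at least 1000 bp at 90% identity or more. By contrast 11 of the 497 regions wide in 1 tissue (2.21%) had such a copy. So did 5 of the 86 wide in 2 to 3 tissues (5.81%), 2 of the 19 wide in 4 and 0 of the 8 wide in 5. None of the 294 regions with a coding TSS on autosomes or X had a copy, whatever their number of tissues. The copy measure was chosen after the regions had been seen and is given as a description. Its part in the width was not tested.

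The region of largest span was mitochondrial, positions 7223 to 16490, and covers the start of 10 coding genes from COX2 to CYTB, which encode subunits of the respiratory chain and of ATP synthase. Its widest peak was 7232 bp in adipose P348 and 5295 bp in adipose P350, and 9258 and 9252 bp in the libraries of cerebellum. Its listed fold over background was low, with a median of 1.69. It had 5 copies in the nuclear assembly. The next were chr10:19421490-19430726, of 9237 bp and wide in cerebellum only, and chr10:19489892-19498019, of 8128 bp and wide in cerebellum, liver and lung. Both lie in SUSD4, a gene for a complement regulator, and had CpG observed over expected ratios of 0.0825 and 0.144. The first had peaks of 5181 and 9237 bp in cerebellum, at folds of 1.66 to 1.74, and up to 4144 bp in other tissues. The second had 3022 to 8128 bp where it was wide and up to 3957 bp elsewhere. The region on chr10:24952108-24958009, whose centre is printed above, lies in the gene LOC102162336 and was the only autosomal one wide in all 8 tissues. Its peaks were 3817 to 5261 bp, its CpG ratio was 0.161 and it had 2 copies elsewhere. On unplaced scaffolds the widest in all 8 tissues held the start sites of LOC100514433 and LOC102160746, with widths of 6824 to 6876 bp in the 16 libraries and a median fold of 1.61.

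On autosomes and X 18 regions with a coding TSS were wide in 4 or more tissues, all 18 in skeletal muscle, 14 in lung and 12 in cerebral cortex, but 4 each in cerebellum and hypothalamus. HIVEP2, a zinc finger transcription factor gene, came first with 7 tissues (chr1:22239182-22244074). Its peak was 4773 bp in spleen P348 and 4788 bp in spleen P350, and 3557 and 3578 bp in skeletal muscle. In lung it was 3358 and 3355 bp, in liver 3301 and 3350 bp, in adipose 3179 and 3207 bp, in cerebral cortex 3112 and 3115 bp and in hypothalamus 3041 and 3115 bp. In cerebellum, the tissue not counted, it was 2860 and 3173 bp. The spleen libraries stood above all the others, and both animals gave nearly the same width in each tissue but cerebellum.

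FOXO3, a forkhead factor of the stress and insulin response, was wide in cerebral cortex, liver, lung, skeletal muscle and spleen. Its widths in these ran from 3023 bp in cerebral cortex P348 to 3481 bp in skeletal muscle P350. In cerebellum it was far narrower, at 852 and 1040 bp, and in adipose (2562 and 2979 bp) and hypothalamus (3244 and 2987 bp) it was near the limit. FOXP2, a forkhead gene known for its role in brain circuits, was wide in adipose, cerebellum, liver, lung and skeletal muscle, with 3028 to 4367 bp. In hypothalamus it reached 1813 and 590 bp. FOXP1, also a forkhead gene, was wide in cerebral cortex, liver, lung and skeletal muscle at 3209 to 3481 bp, and was 2532 to 3236 bp elsewhere. Others wide in 5 tissues were BHLHE40, a circadian repressor, LRP2, an endocytic receptor, and JADE2, a chromatin factor. Those wide in 4 included SMARCA2, a remodeller subunit, BCL6, a repressor of lymphoid cells, NR3C1, the glucocorticoid receptor, and GADD45G, a stress response gene.

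The genes of the developmental regulator families were counted over a list of 226 genes, of which 10 (4.42%) had a coding TSS inside a region, against 1.7% of all coding genes. The list was made with earlier results of these data known, and the count is a description. They included FOXO1, FOXO3, FOXP1, FOXP2, POU3F2, POU3F3, POU4F2, SIX4 and SOX6. These covered 4 of 43 FOX genes, 3 of 15 POU genes, 1 of 19 SOX genes and 1 of 6 in the family of SIX4. None of 36 HOX genes, 14 NKX genes, 13 TBX genes or 8 each of the PAX and LHX genes was among them. SOX6 was wide in cerebral cortex, lung and skeletal muscle, at 4084 to 4832 bp, and 1484 to 3787 bp in the other libraries. FOXO1 was wide in adipose, lung and skeletal muscle at 3098 to 4360 bp. SIX4, a factor of the muscle programme, was wide in lung and skeletal muscle at 3063 to 3280 bp.

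The POU genes each belonged to a single tissue. POU3F2, a neuronal factor, was wide in cerebral cortex at 3024 and 3287 bp. In hypothalamus it was 1936 and 1988 bp and in cerebellum 779 and 1434 bp, but it also reached 3200 bp in adipose P350. POU4F2, known from sensory neurons, was wide in cerebellum at 3287 and 3350 bp, and reached 3425 bp in hypothalamus P348 alone and 3412 bp in lung P350 alone. POU3F3 was wide in lung at 3038 and 3264 bp. A single-tissue label thus did not exclude a wide peak in 1 animal of another tissue. Among all 186 single-tissue regions outside skeletal muscle, 89 reached 3000 bp in at least 1 library of another tissue, whereas 62 of the 311 of skeletal muscle did.

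Early response genes are switched on within minutes by stress or growth signals. Of 21 measured, 4 (19.0%) had a coding TSS inside a region, against 1.7% of all coding genes, namely JUN, KLF4, GADD45B and ZFP36. JUN, a subunit of AP-1, was wide in both animals of cerebral cortex only, at 3496 and 3522 bp, and elsewhere its widths ran from 1389 to 4251 bp with a median of 2971.5 bp. KLF4, a zinc finger factor, was wide in lung at 3310 and 3701 bp, with 629 to 2783 bp in the other 14 libraries. GADD45B was wide in lung and skeletal muscle at 3003 to 6361 bp. ZFP36, which promotes decay of unstable mRNAs, was 4540 and 5086 bp in skeletal muscle and 248 to 2170 bp elsewhere. The groups of libraries did not overlap for KLF4 and ZFP36, which their selection on width makes likely. How tissue handling relates to these genes was not tested.

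**Figure D3:**
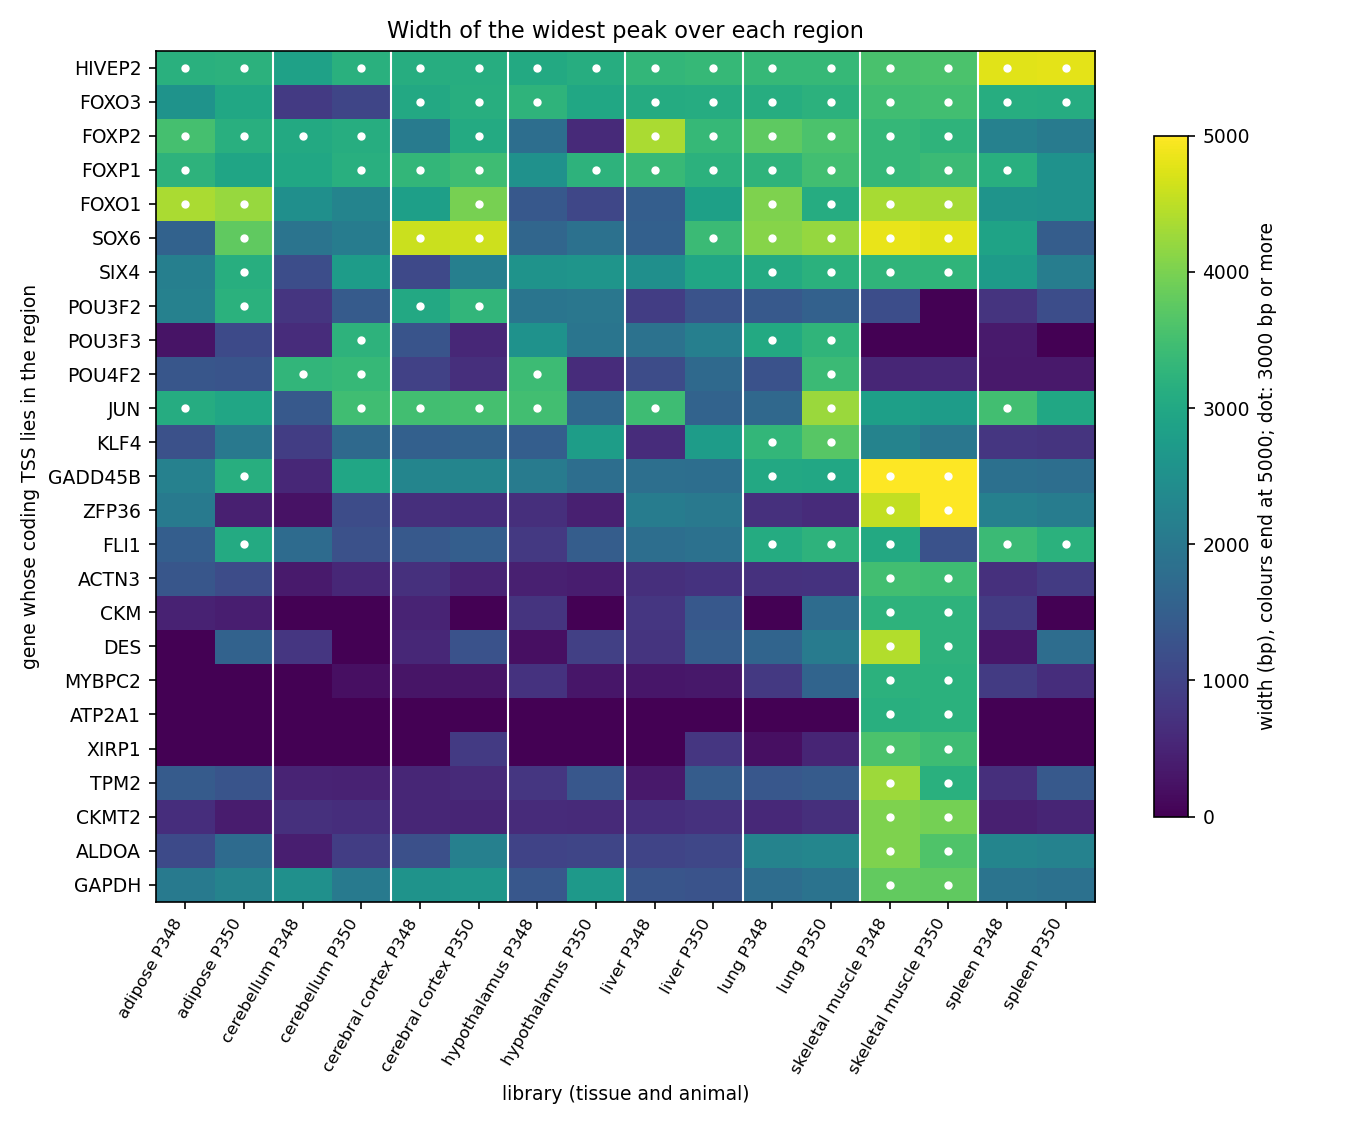
Width in bp (colour, with the scale capped) of the widest peak over the region of each named gene (y axis) in the 16 libraries (x axis, by tissue and animal), with a dot where the width was 3000 bp or more. HIVEP2 at the top has dots in 15 of the 16 libraries, and the muscle genes at the bottom have them in skeletal muscle only.

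Genes of the tissue's identity were covered in skeletal muscle and hardly elsewhere. Each tissue had a list of 12 genes, made with earlier results known. Of the muscle list, 4 of 12 (33.3%) had a coding TSS inside a region wide in skeletal muscle, against 1.17% of all coding genes for that tissue. These were ACTN3, a Z-disc actinin, CKM, the muscle creatine kinase, DES, the intermediate filament desmin, and MYBPC2, a myosin-binding protein. TNNT3 and TTN, a troponin and titin, were overlapped in their body, so that 6 of 12 (50%) were touched, against 1.7% of all coding genes in skeletal muscle and 2.42% in any tissue. Of the spleen list 1 of 12 had a TSS in a region, FLI1, an ETS factor of blood and endothelial cells, against 0.245% of all coding genes in spleen. Its region was also wide in lung and holds a TSS of LOC100516820 too. The lists for adipose (0.255% of all coding genes), cerebellum (0.187%), cerebral cortex (0.29%), hypothalamus (0.108%), liver (0.152%) and lung (0.408%) had 0 of 12 each. With backgrounds this low, 0 of 12 says little about those tissues. SFTPC, the lung surfactant protein gene, was overlapped by a region that was wide in skeletal muscle and not in lung. Of other lists, 1 of 82 ribosomal protein genes (RPL10) and 0 of 6 histone genes had a TSS in a region.

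The muscle genes were wide in both animals of skeletal muscle, and elsewhere their peaks ranged from none to nearly as wide as the limit. CKM had peaks of 3225 and 3242 bp in skeletal muscle. In the other 14 libraries the widest was 1762 bp, in lung P350, the median was 451 bp, and 6 libraries had no peak. ATP2A1, the calcium pump of the sarcoplasmic reticulum, had 3147 and 3187 bp in skeletal muscle and no peak in any of the other 14 libraries. XIRP1, an actin-binding protein of muscle, had 3579 and 3448 bp, and 10 of the other 14 libraries had no peak. DES had 4425 and 3224 bp in skeletal muscle and at most 2080 bp elsewhere. ACTN3, whose region also holds a TSS of ZDHHC24, had 3442 to 3494 bp and 370 to 1346 bp elsewhere. No library of another tissue reached the muscle libraries in width for any of these 5 genes, which were selected on width. Of all 311 regions wide in skeletal muscle only, 62 reached 3000 bp in at least 1 library of another tissue. The rest were separated in the same way, so this is not particular to the 5 genes. The regions of other muscle genes had broader peaks in other tissues. That of ENO3 had a median of 2209.5 bp and up to 2950 bp there. It also holds a TSS of PFN1, so these widths cannot be assigned to ENO3. SYNC had a median of 1514 bp and up to 2518 bp, and ALDOA up to 2293 bp.

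Whole gene groups of the muscle fibre, chosen after the values had been seen, were counted in the same way. For skeletal muscle, 1.17% of all coding genes had a TSS in a region and 1.7% were overlapped. Of 46 sarcomere and Z-disc genes 10 (21.7%) had a TSS in a region and 17 (37.0%) were overlapped, all in skeletal muscle. Of 22 genes of excitation and calcium handling it was 3 (13.6%; ATP2A1, CACNB1 and SCN4A) and 4 were overlapped. Of 22 genes of glycolysis and creatine kinase it was 5 (22.7%; ALDOA, CKM, CKMT2, ENO3 and GAPDH) and 6 were overlapped. Since the lists were chosen on these values, the shares are no evidence of their own. GAPDH, active in most cells, had peaks of 3777 to 3802 bp in skeletal muscle and 1272 to 2687 bp elsewhere. Within TTN, which encodes titin, 4 separate regions of skeletal muscle were found. Over FLNC, a filamin of the Z-disc, lay 3 regions, the longest of 7656 bp in its body (chr18:19774445-19782100), and a region of 7643 bp lay over CKM and MARK4 (chr6:51698349-51705991). The longest of those wide in skeletal muscle only, of 8036 bp, lay in CNNM2 (chr14:114051784-114059819), which encodes a magnesium transport protein. EEF1A2, the elongation factor form of muscle and neurons, lay in the longest single-tissue region with a coding TSS, with peaks of 6004 and 6682 bp in skeletal muscle and of at most 1329 bp elsewhere.

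The 18 regions with the TSS of one of these muscle genes had a median CpG observed over expected ratio of 0.369, from 0.193 to 0.661. The 135 other autosomal and X-linked regions with a coding TSS that were wide in skeletal muscle only had a median of 0.620. Over all 294 such regions of any tissue with a coding TSS the median was 0.676, and over the 274 without one it was 0.337. The muscle genes thus resembled regions away from promoters in this ratio more than the other promoters. Their 35 TSS windows had a median of 14 CpGs. CAGCTG was present in 28.6% of these against 17.1% of all coding windows, the AP-1 motif in 8.57% against 3.21% and the GC box in 57.1% against 52.3%. The 35 windows came from 18 genes, and windows of the same gene can overlap and share a motif copy. The shares are therefore a description.

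The widest regions of the other tissues, each wide in that tissue only and with the largest width in the narrower animal, were few and of mixed kind. In lung it was a region of 5105 bp in IQANK1 and SCRIB, and among those with a coding TSS MKX, a homeobox gene of tendon and connective tissue, with 4820 and 4363 bp. In cerebellum RSPO3, a Wnt agonist, had 3886 and 3888 bp, with 3919 bp in skeletal muscle P348 too, and the widest was on an unplaced scaffold, at 6424 and 6152 bp. In adipose the widest lay in TEX14, at 4200 and 4123 bp, and ADAMTS1, a secreted protease, had 3945 and 3904 bp, with 3930 bp in cerebral cortex P348 too. In cerebral cortex it was LOC110261478, at 4646 and 4494 bp, but it had 4684 bp in cerebellum P350 too. In spleen the widest lay between genes at 3766 and 3734 bp, and LIMD2 had 3750 and 3711 bp. In hypothalamus ELAVL3, a neuronal RNA-binding protein, had 3415 and 3317 bp, with 1974 and 1960 bp in cerebral cortex and 736 and 843 bp in cerebellum. In liver the widest, on chromosome 17 in a gene not annotated as protein-coding, had 3468 to 3556 bp, and up to 2809 bp elsewhere.

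Many of the regions also held peaks in the other tissues. Of the 636, 377 (59.3%) overlapped a peak of some width, by at least 1 bp, in both animals of all 8 tissues. On autosomes and X this was 234 of 294 (79.6%) with a coding TSS and 103 of 274 (37.6%) without one. For the 311 of skeletal muscle alone it was 156 (50.2%), and 4 of them had no peak in any other tissue. Such shares were not counted for narrower peaks. Peaks of the other tissues covered a median of 20.7% (hypothalamus) to 40.5% (lung) of these regions, against 98.7% in skeletal muscle. Where the region held a coding TSS the range was 34.1% to 55.4%, and where it did not it was 10.4% to 28.7%. Regions wide in cerebellum only were covered for a median of 9.51% in skeletal muscle and 54.3% in lung. The lists come from bulk nuclei, so a larger share of one cell type and more open chromatin per nucleus cannot be told apart.

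**Figure D4:**
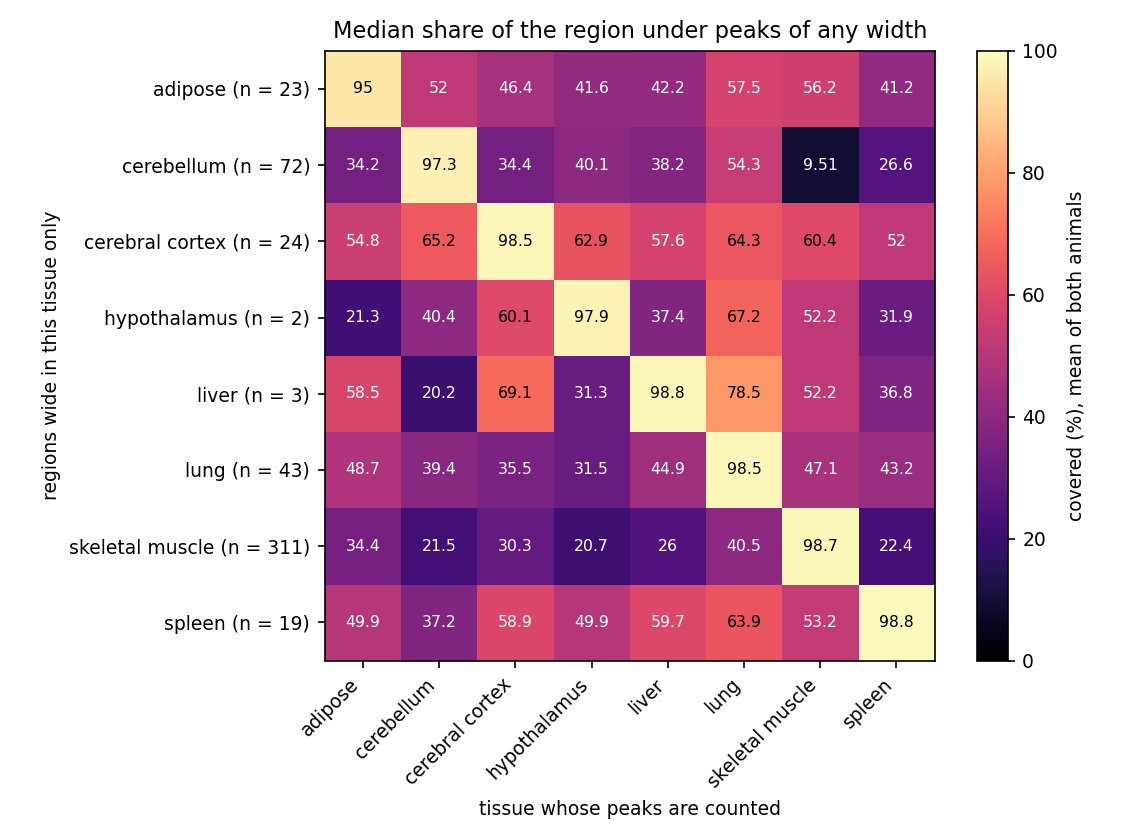
Median share (%) of a region that lay under peaks of any width in each tissue (x axis), for regions wide in 1 tissue only (y axis, with the number of regions), as the mean of both animals. Regions of skeletal muscle were covered for 20.7% to 40.5% in the other tissues and those of cerebellum for 9.51% in skeletal muscle.

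To ask how the wide peaks differ from ordinary broad ones in features the width did not choose, they were compared with peaks of at least 1000 bp and under 3000 bp, called intermediate here, that overlapped a peak of that class in the other animal. The unit was the tissue, with both animals pooled. The tissues come from the same 2 animals and share regions, so they are not fully independent. The 1984 wide peaks had a midpoint within 2000 bp of a coding TSS in 41.1% ± 13.3 (SD, n = 8 tissues), and the 223332 intermediate peaks in 40.1% ± 10.2. The difference of 0.985 percentage points was smaller than the spread between tissues (p = 0.875 by the same exact permutation, 0.875 after Benjamini-Hochberg adjustment over the 4 tests made, 5 of 8 tissues positive). On autosomes and X alone it was 11.2 percentage points, 51.8% ± 14.0 against 40.6% ± 10.4, positive in 7 of 8 tissues (exact permutation p = 0.0547). The exception was hypothalamus, with 36.0% against 49.1%. A comparison within 500 bp of a TSS gave the opposite direction, with 19.7% of wide and 31.5% of intermediate peaks (exact permutation p = 0.0156). Distance was taken from the midpoint, which in a wide peak can lie over 500 bp from a TSS inside the peak. Width itself therefore lowers this share, and the comparison cannot separate width from place. The call changed with the definition of the peaks as well. At a width limit of 2500 bp the difference was 10.9 percentage points (exact permutation p = 0.00781), and in P348 or P350 alone it was 11.6 (p = 0.0156) or 10.2 (p = 0.00781, both by exact permutation). In a single animal neither class was asked for a partner, and the shares of both classes were lower. They were 38.0% of wide and 26.4% of intermediate peaks in P348, and 36.0% and 25.8% in P350. The larger difference thus went with a lower share of the intermediate peaks, not a higher one of the wide peaks.

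The median CpG observed over expected ratio of the wide peaks was 0.557 ± 0.110 (SD, n = 8 tissues) and that of the intermediate peaks 0.480 ± 0.119. The difference of 0.0764 was positive in 7 of 8 tissues and missed the threshold of 0.05 (exact permutation p = 0.0781, adjusted 0.156). On autosomes and X it was 0.130, positive in 8 of 8 tissues, at the smallest p that 8 tissues allow (exact permutation p = 0.00781). Cerebral cortex had 0.728 against 0.458 there, and cerebellum, the lowest, 0.355 against 0.259. The difference thus passed without the unplaced, Y and mitochondrial sequences and not with them.

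The sites of wide peaks were open in more of the other tissues than those of intermediate ones, by a difference that missed the threshold after adjustment. The mean number of the other 7 tissues in which both animals had a peak over the midpoint was 4.64 ± 1.19 for wide and 3.53 ± 0.767 for intermediate peaks (SD, n = 8 tissues), a difference of 1.11 (exact permutation p = 0.0156, adjusted 0.0625, 7 of 8 tissues positive). On autosomes and X the difference was 0.659 (exact permutation p = 0.0391). Over 2000 bp from every coding TSS the difference was larger, 4.64 against 2.16. This setting kept the unplaced, Y and mitochondrial sequences and was not run on autosomes and X alone. Skeletal muscle was the exception, with a difference of -0.697. In both of its animals the wide peaks were lower, by -0.650 in P348 and -0.743 in P350.

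**Figure D5:**
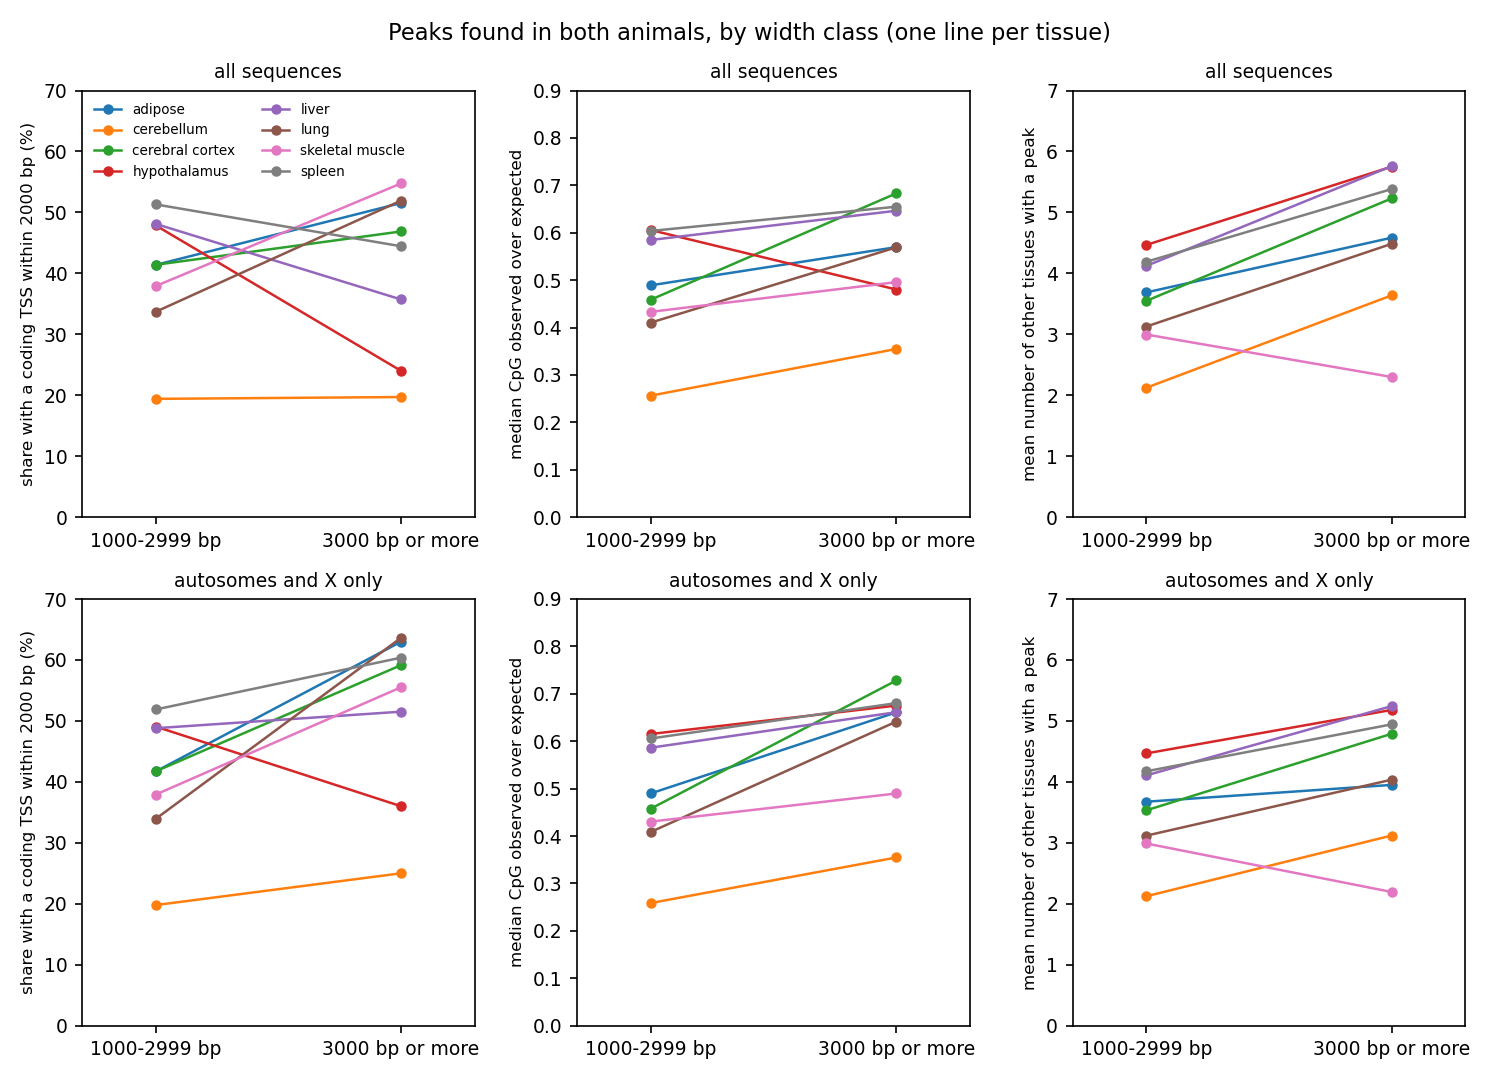
Share of peaks near a coding TSS (%), median CpG observed over expected and mean number of other tissues with a peak (y axes) for intermediate peaks (1000 bp to under 3000 bp) and wide ones (3000 bp or more, x axis), 1 line per tissue, on all sequences (top) and on autosomes and X (bottom). Skeletal muscle is the only falling line in the panels on other tissues, with a difference of -0.697 on all sequences. In the share near a coding TSS hypothalamus falls in both rows, and liver and spleen fall on all sequences only.

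The width of a peak did not go with a high listed fold. The median fold of the wide peaks with a partner was 2.58 to 3.20 in the 16 libraries, and in each library it was below that of the intermediate peaks. In skeletal muscle it was 2.95 and 3.04 for wide and 4.15 and 4.48 for intermediate peaks. Since fold and width come from the same peaks, this is a description.

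As checks of the labels, all 12 genes of the muscle list had a coding TSS in a peak of both animals of skeletal muscle, against 2 to 6 in the other tissues. For liver it was 8 against 2 to 3, for lung 8 against 3 to 5, for spleen 11 against 3 to 8 and for cerebellum 8 against 2 to 6. The lists of adipose (6 against 3 to 8), cerebral cortex (4 against 2 to 5) and hypothalamus (4 against 3 to 6) did not set those tissues apart. By the same width rule the cattle lists gave 448 regions over 7 tissues, of which 375 were wide in 1 tissue. Lung led there with 352 peaks with a wide partner in each animal, followed by skeletal muscle with 122.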

How the data were processed

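Peak lists of 16 pig and 15 cattle ATAC-seq libraries, 1 per library, were analysed, with replicates unpooled. Per the labels, libraries were selected for fragments of 150 to 250 bp and sequenced with paired reads of 40 bp. The submitters' processing notes name Trim Galore 0.4.5, BWA 0.7.17, SAMtools 1.10 and Picard 2.18.17, and the study's methods name MACS2, run for broad peaks at q-values under 0.05. Whether read ends were shifted for the enzyme is not given in the sources used here. The deposited lists have 9 columns without a header, which hold a score (the −log10 q-value multiplied by 10), a ratio that is the fold over background, and the −log10 of each p-value and q-value, all made by the authors. They hold no counts, so depth is unknown and no interval that needs it is given.

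Width was end minus start. Coordinates are 1-based on Sscrofa11.1, and all 270 sequence names matched the RefSeq assembly. TSS came from coding transcripts of its annotation (47135 positions, counted once where both strands share one, 20368 genes, the 10 mitochondrial genes in the regions by gene start). CpG observed over expected is the CpG count times the length over the product of C and G counts. Copies were found with minimap2 2.31-r1302. Scripts used Python 3.11.15 and numpy 2.4.6, and the overlap and permutation code was tested on simulated data. The 4 tests were adjusted together by Benjamini-Hochberg, and the threshold of 0.05 was applied to the unadjusted p. The members and gene lists were chosen with earlier results of these data known, and 3 muscle lists after the values were seen. Named genes were those of the lists with a TSS in a region, the 3 largest spans, the widest region of each tissue, the regions wide in all 8 tissues and those at the limit of width. Further genes wide in 4 or more tissues, in each tissue's widest region with a coding TSS or with long regions in skeletal muscle were named after their values were seen, and 1 gene that the rule names is not reported here. P348 and P350 mark the same animal in every tissue, so the names pair the libraries by design, and P350 had more wide peaks than P348 in 4 of 8 tissues. Alternatives were other width limits (2500 and 4000 bp), q-value under 0.01, single animals, a replicate block, other sequences and TSS distances, and tissues left out in turn.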

Additional observations from a re-analysis of the deposited data

Results flagged for a closer look

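Some tissues moved against the others in both animals, and the difference between tissues was not tested. The wide peaks of an animal overlap those of the other, so the agreement of the animals is not independent. For the share near a coding TSS, wide minus intermediate peaks, hypothalamus gave -23.9, liver -12.4 and spleen -6.87 percentage points, while the other 5 tissues were positive. For the CpG observed over expected ratio, hypothalamus gave -0.125 while the other 7 tissues were positive. On autosomes and X liver, spleen (both for the TSS share) and hypothalamus (for the CpG ratio) were positive, at 2.71 and 8.50 percentage points and 0.0599, and hypothalamus stayed negative for the TSS share at -13.1 percentage points. For the number of other tissues with a peak, skeletal muscle gave -0.697 while the other 7 tissues were positive, and it was -0.796 on autosomes and X.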

How the results depend on the processing

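Calls refer to unadjusted p. The number of regions rested on the width limit, with 1889 at 2500 bp and 103 at 4000 bp, and on asking for both animals, with 2134 to 2343 regions in 1 animal alone, of which 83.7% to 87.2% were wide in 1 tissue (an alternative chosen after seeing the data). The TSS share difference passed the threshold at 2500 bp (10.9 percentage points), against all peaks under 3000 bp (23.9) and in single animals (10.2 to 11.6). Within 500 bp of a TSS, where width itself lowers the share, the difference passed in the opposite direction (-11.7). It was -7.63 with q-value under 0.01 and -11.1 at 4000 bp, short of the threshold. Without adipose, lung or skeletal muscle it was -0.324, -1.48 and -1.28. The CpG difference was -0.0586 at 4000 bp and passed the threshold at 2500 bp (0.127), against all peaks under 3000 bp (0.246), on autosomes and X (0.130), over 2000 bp from every coding TSS (0.0516), without hypothalamus (0.105) and in single animals (0.108 to 0.126). The difference in other tissues was 0.697 to 0.826 in single animals and missed the threshold without P348 (exact permutation p = 0.0547). In single animals the partner rule fell away for intermediate peaks too, and both classes had lower values in each of these measures. The CpG ratio was 0.485 for wide and 0.359 for intermediate peaks in P348, and 0.465 and 0.357 in P350. With a replicate block, taking differences within each animal, the values were 0.985 percentage points, 0.0773 and 1.11, and no call changed. The log2 ratio of the animals was -0.0164 without cerebral cortex, -0.0709 without liver and -0.143 without lung, and it missed the threshold in all alternatives. The cause of these changes was not tested. Depth could not be examined, and 2 related animals per tissue limit all statements to these animals.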
